A study of Homo sapiens with 12 samples.

Results

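The genes described here are the 32 genes of sterol and fatty acid synthesis that a list by symbol names: the enzymes that build cholesterol from acetyl-CoA, the SREBP transcription factors with the proteins that hold or release them, a sterol carrier, and the enzymes that make, desaturate and elongate fatty acids. The list goes by function and its rule uses no measured value, but it was drawn up with earlier results of these data known. All 32 symbols had a row among the 17099 genes of the OCI-AML2 count table and among the 16820 genes of the MOLM-13 table. After the filter on low counts, 32 members were tested in OCI-AML2 and 31 in MOLM-13, where ELOVL6 was too low. OCI-AML2 and MOLM-13 are established human cell lines derived from acute myeloid leukaemia, labelled as leukemic blasts. Poly(A) RNA was sequenced from 4 groups of 3 libraries: OCI-AML2 with vehicle (DMSO), OCI-AML2 with 200 nM selinexor, MOLM-13 with vehicle, and MOLM-13 with 75 nM selinexor, each for 36 h. Selinexor is a small molecule that blocks XPO1, the receptor that carries many proteins and RNAs out of the nucleus. The labels name no transgene or deletion and give the 4 groups the same culture medium. The dose differed with the line, so line and dose cannot be told apart.

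Cells make cholesterol from acetyl-CoA through the mevalonate pathway, which ends in farnesyl diphosphate, and then through squalene and lanosterol. The precursor proteins SREBP1 and SREBP2 sit in the endoplasmic reticulum with SCAP, and INSIG proteins hold them there while sterols are plentiful. When sterols are scarce SCAP escorts the SREBPs to the Golgi, proteases release their active part, and it enters the nucleus to switch on genes of sterol synthesis (mainly SREBP2) and fatty acid synthesis (mainly SREBP1). Dividing cells, leukaemia cells among them, need these lipids for new membranes.

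Total counts per library lay between 8114892 and 11769061 over the 12 libraries, so that 3 counts in a library equalled 0.249 to 0.375 CPM (the CPM unit, a gene's share of the library's counts after TMM scaling within a line), a limit that covers counting error only. Spearman correlations across genes between libraries of a group were 0.986 to 0.990, and no pair held the same values. Myeloid genes were present in both lines: with vehicle, SPI1 averaged 359 ± 12.5 CPM in OCI-AML2 and 186 ± 11.6 CPM in MOLM-13 (SD, n = 3). ANPEP and KIT, also markers of myeloid blasts, stayed at or under 0.491 CPM on average in every group. The summed level of the lymphocyte markers lay between 11.3 and 19.3 CPM over all libraries. The libraries of a group are described by the submitters as biologically independent. They are called library 1, 2 and 3 here by column order, which only names them.

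Promoter sequences of 28 of the 32 members were matched by symbol in RefSeq (GRCh38.p14), with 1 start kept for each symbol. The 250 bases before that start were searched on both strands, and any other start of a gene was not searched. The window kept for IDI1 (chr10:1056705-1056954) lies upstream of its GENCODE 29 gene (chr10:1039152-1049170) and does not adjoin it. That of FADS1 (chr11:61817004-61817253) lies wholly within its gene. So do those of ACLY, ACSS2, CYP51A1, DHCR7, EBP, ELOVL6, FADS2, MVK, PMVK, SC5D and SCAP. Of these, ACLY, ACSS2, DHCR7, EBP, MVK and SC5D count toward the CCAAT box share below, and SC5D and SCAP toward that of CACGTG. The shares below hold for the starts kept. The motifs searched were the sterol regulatory element TCACNCCAC, its core CACNCCAC, which overlaps it, the CCAAT box bound by NF-Y, and the E-box CACGTG. The CCAAT box lay in 18 members (64.3%) against 33.0% of 27305 promoters of this length. CACNCCAC lay in 3 members (10.7%; INSIG1, SCD and SREBF2) against 4.72%, the full TCACNCCAC in 1 (SREBF2) against 0.875%, and CACGTG in 3 (10.7%; INSIG1, SC5D and SCAP) against 6.49%. These matches describe letters, and no binding was measured. Below are 5 promoters of members that the results turn on: SREBF1 and SREBF2, which moved in opposite directions, INSIG1 and SCD, which fell in both lines, and HMGCS1, an early enzyme of the mevalonate pathway. Each runs 5′ to 3′ toward the gene on its own strand, from 250 bases before the RefSeq start to 10 bases past the first base that GENCODE 29 gives the gene. Capitals mark CACNCCAC or CCAAT on either strand.
SREBF1, chr17:17836993-17837236, minus strand: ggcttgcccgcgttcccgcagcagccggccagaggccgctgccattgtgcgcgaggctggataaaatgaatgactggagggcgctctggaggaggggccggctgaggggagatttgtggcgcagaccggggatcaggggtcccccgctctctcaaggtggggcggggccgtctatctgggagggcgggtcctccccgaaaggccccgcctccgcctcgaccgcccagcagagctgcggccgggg
SREBF2, chr22:41832855-41833088, plus strand: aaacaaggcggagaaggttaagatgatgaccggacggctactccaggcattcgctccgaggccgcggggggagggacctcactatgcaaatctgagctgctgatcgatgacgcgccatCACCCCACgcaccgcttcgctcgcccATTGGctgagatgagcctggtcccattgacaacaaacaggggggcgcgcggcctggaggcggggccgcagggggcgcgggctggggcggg
INSIG1, chr7:155297628-155297785, plus strand: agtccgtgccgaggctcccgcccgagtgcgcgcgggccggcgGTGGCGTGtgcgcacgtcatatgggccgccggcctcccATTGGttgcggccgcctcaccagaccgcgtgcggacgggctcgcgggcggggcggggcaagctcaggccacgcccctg
SCD, chr10:100346983-100347133, plus strand: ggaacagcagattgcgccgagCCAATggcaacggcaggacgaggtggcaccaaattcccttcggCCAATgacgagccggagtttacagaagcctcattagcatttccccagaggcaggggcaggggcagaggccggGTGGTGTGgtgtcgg
HMGCS1, chr5:43313503-43313662, minus strand: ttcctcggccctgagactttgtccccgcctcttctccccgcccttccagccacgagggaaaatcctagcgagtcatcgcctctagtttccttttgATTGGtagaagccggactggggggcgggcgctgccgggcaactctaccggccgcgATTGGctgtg
SREBF1 shows no capital in this window. SREBF2 holds a CACCCCAC followed by an ATTGG, INSIG1 a GTGGCGTG followed by an ATTGG, SCD a pair of CCAAT boxes upstream of its GTGGTGTG, and HMGCS1 a pair of ATTGG.

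Most of these transcripts were lower with selinexor in both lines. Log2 fold changes are given throughout as selinexor over vehicle, estimate ± SE from 3 against 3 libraries. Every SE of a log2 value here was worked back from its test, as the absolute estimate divided by the square root of the F statistic. In OCI-AML2, 22 of 32 members fell, 1 rose (SREBF2) and 9 did not pass the test (edgeR's quasi-likelihood test, Benjamini-Hochberg adjusted p under 0.05 over all genes tested). Among the 12086 genes tested there, 31.8% fell, 31.3% rose and 63.1% did either, and the members' median log2 fold change was -0.36 against 0.00 for all genes. In MOLM-13, 19 of 31 members fell and 5 rose (TM7SF2, SREBF2, SCAP, ACSS2 and FASN), where 31.8% of 11807 genes fell, 31.8% rose and 63.6% did either. The median was -0.35 against 0.01. The same 16 members fell in both lines, where 23.6% of the 11202 genes tested in both did so. SREBF2 rose in both (21.0% of genes), and FASN fell in OCI-AML2 and rose in MOLM-13 (2.86% of genes were called in opposite directions). The 3 vehicle and 3 selinexor libraries did not overlap for 24 of 32 members in OCI-AML2, where 66.3% of genes did not, and for 23 of 31 in MOLM-13, where 65.5% did not. Falls of at least 2-fold were found for SCD, FADS1 and FADS2 in OCI-AML2 (3 of 32 members, 2.85% of genes) and for SCD, FADS2 and SREBF1 in MOLM-13 (3 of 31, 3.57% of genes).

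**Figure D1:**
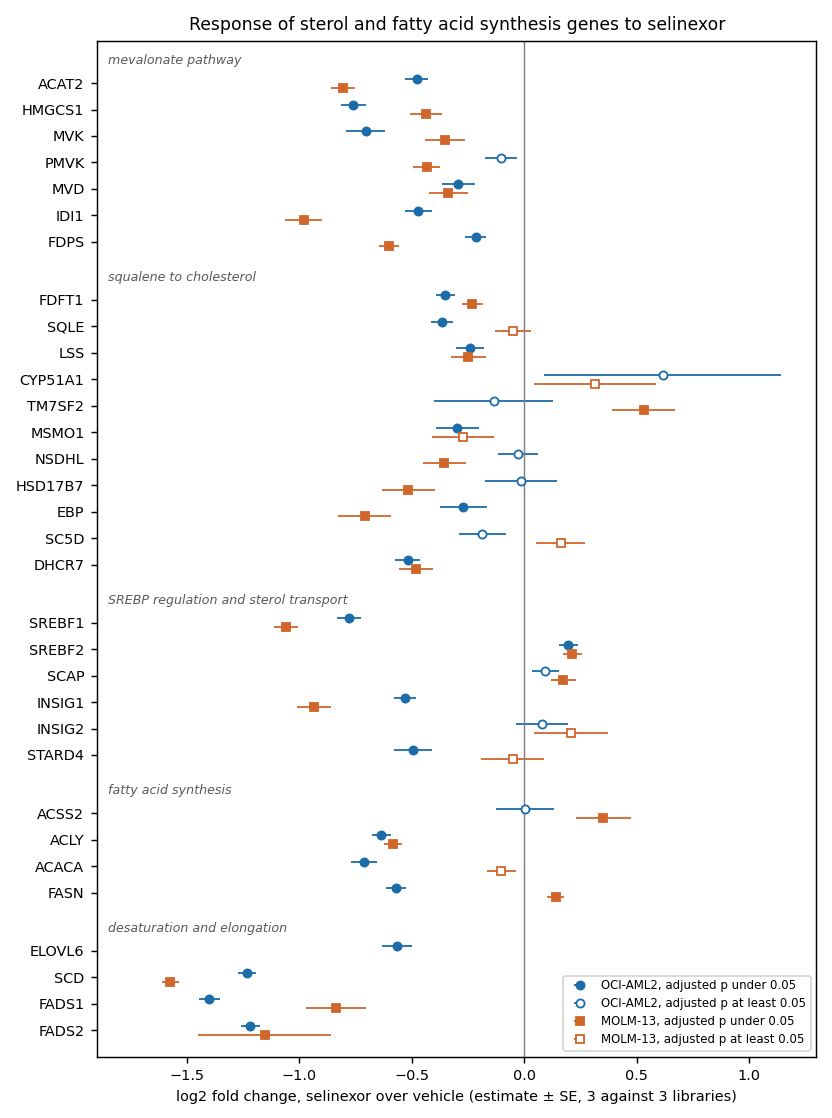
Log2 fold change of each member, selinexor over vehicle (horizontal axis), as estimate ± SE from 3 against 3 libraries, with OCI-AML2 as circles, MOLM-13 as squares and filled symbols for adjusted p under 0.05. Most filled symbols lie left of 0, and SREBF2 lies right of 0 in both lines. The desaturases SCD, FADS1 and FADS2 reach furthest left in OCI-AML2. In MOLM-13 SCD (-1.58) and FADS2 (-1.15) do, and SREBF1 (-1.06), IDI1 (-0.98) and INSIG1 (-0.94) lie left of FADS1 (-0.84).

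Summed over the 32 members, the vehicle libraries of OCI-AML2 held 4699 to 4835 CPM and the selinexor libraries 3122 to 3192 CPM. In MOLM-13 the sums were 2834 to 2884 CPM and 2057 to 2116 CPM. The groups did not overlap in either line. Other gene groups moved over the same libraries. All 19 proliferation markers fell in both lines. Their sum was 5951 to 6010.2 CPM with vehicle and 3249 to 3266 CPM with selinexor in OCI-AML2, and 5489 to 5564 CPM against 1929 to 1962 CPM in MOLM-13. The 10 monocyte markers summed to 163 to 169 CPM with vehicle and 434 to 457 CPM with selinexor in OCI-AML2. The 8 of them with a row in MOLM-13 summed to 40.5 to 45.5 CPM and 88.3 to 95.96 CPM. The 9 of 10 myeloid blast markers with a row summed to 2946 to 3150 CPM with vehicle and 11277 to 11553 CPM with selinexor in OCI-AML2, and to 1372 to 1387 CPM and 2989 to 3028 CPM in MOLM-13. LYZ, the gene of lysozyme, held most of the OCI-AML2 shift, with means of 1735 and 9580 CPM, and of the other blast markers in that line PTPRC, SPI1, CEBPA and FLT3 rose and MPO fell. In MOLM-13 CD33, SPI1, CEBPA, MPO, FLT3 and LYZ rose. The erythroid and megakaryocyte markers, 2 of 5 with a row, summed to 1.08 to 1.74 CPM and 12.6 to 16.04 CPM in OCI-AML2, nearly all from ITGA2B, and to at most 1.15 CPM in MOLM-13. The stromal and epithelial markers, 4 of 5 with a row, summed to 51.7 to 60.4 CPM and 89.1 to 91.1 CPM in OCI-AML2, nearly all from PECAM1, and to 11.9 to 13.7 CPM and 23.99 to 31.6 CPM in MOLM-13. The part of any of these changes in the fall of the lipid genes was not tested. In bulk RNA, fewer cells of a type and less RNA per cell cannot be told apart, and CPM values are shares of the RNA sequenced.

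Of the mevalonate pathway, 6 of 7 members fell in OCI-AML2 and 7 of 7 in MOLM-13. Its summed level lay between 682 and 695 CPM with vehicle and between 502 and 534 CPM with selinexor in OCI-AML2. MOLM-13 sums lay between 653 and 666 CPM and between 434 and 438 CPM. ACAT2, the cytosolic thiolase that joins 2 acetyl-CoA at the start of the pathway, gave 129.6, 132 and 129.8 CPM with vehicle and 95.8, 91.99 and 93.4 CPM with selinexor in OCI-AML2. MOLM-13 gave 159, 145 and 152 CPM and 82.3, 84.9 and 93.7 CPM. Every selinexor library lay under every vehicle library of its line. The log2 fold changes were -0.48 ± 0.052 (adjusted p = 7.14e-11) and -0.81 ± 0.053 (adjusted p = 1.65e-26). ACAT2 shares 1141 exonic bases with SOD2 on the opposite strand in GENCODE 29, and without strand the reads of such overlaps cannot be told apart. HMGCS1 (chr5:43289395-43313512, minus strand), the HMG-CoA synthase, was at 136, 128 and 131 CPM with vehicle and 72.9, 82.2 and 77.5 CPM with selinexor in OCI-AML2. In MOLM-13 it was at 63.1, 65.5 and 63.6 CPM and 47.1, 44.4 and 50.98 CPM. Neither line showed an overlap. Its log2 fold change was -0.76 ± 0.056 in OCI-AML2 and -0.44 ± 0.070 in MOLM-13 (adjusted p = 8.26e-16 and 5.66e-08).

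PMVK, the phosphomevalonate kinase, gave 53.9, 50.7 and 51.01 CPM and 45.9, 45.7 and 52.8 CPM in OCI-AML2, groups that overlap. MOLM-13 libraries gave 96.7, 90.6 and 89.9 CPM with vehicle and 68.7, 67.2 and 69.2 CPM with selinexor, and here the groups stood apart. Accordingly PMVK did not pass the test in OCI-AML2 (-0.10 ± 0.072, adjusted p = 0.205) and fell in MOLM-13 (-0.43 ± 0.060, adjusted p = 4.12e-10). IDI1 (chr10:1039152-1049170, minus strand), the isomerase of isopentenyl diphosphate, went from 110.4, 98.3 and 106 CPM to 69.8, 76.6 and 79.7 CPM in OCI-AML2. In MOLM-13 it went from 60.6, 50.1 and 54.7 CPM to 26.99, 29.6 and 26.9 CPM. The groups did not overlap, and IDI1 was 1.97-fold lower in MOLM-13 (-0.98 ± 0.083) and 1.39-fold lower in OCI-AML2 (-0.47 ± 0.060). FDPS, which condenses these units to farnesyl diphosphate, went from 182, 185 and 192 CPM to 152, 159 and 169.5 CPM in OCI-AML2 (-0.22 ± 0.047). In MOLM-13 it went from 211, 227 and 229.8 CPM to 153, 149.5 and 138 CPM (-0.60 ± 0.044). All 3 treated libraries were the lower ones in each line. MVK, the mevalonate kinase, fell in both lines (-0.71 ± 0.088 in OCI-AML2 and -0.35 ± 0.088 in MOLM-13), as did MVD, the decarboxylase that follows PMVK (-0.29 ± 0.073 and -0.34 ± 0.087).

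From squalene to cholesterol, 6 of 11 members fell in OCI-AML2 and 5 did not pass the test, and in MOLM-13 6 fell, 1 rose and 4 did not pass. The sum was 743 to 772 CPM with vehicle and 595 to 613 CPM with selinexor in OCI-AML2. For MOLM-13 it was 440.1 to 456 CPM and 369 to 388 CPM. DHCR7, a reductase of the last steps, gave 111, 114 and 114 CPM with vehicle and 79.7, 80.1 and 76.6 CPM with selinexor in OCI-AML2. MOLM-13 gave 57.6, 53.4 and 54.97 CPM and 38.2, 40.9 and 39.6 CPM. Its groups were well apart, with log2 fold changes of -0.52 ± 0.055 and -0.48 ± 0.075 (adjusted p = 4.88e-11 and 2.35e-08). FDFT1, the squalene synthase, went from 248, 263 and 255 CPM to 199, 201 and 201 CPM in OCI-AML2. In MOLM-13 it went from 183, 177 and 173 CPM to 156, 151 and 147 CPM. FDFT1 fell in both lines without overlap (-0.35 ± 0.042 and -0.23 ± 0.045). SQLE, the squalene epoxidase that sets the pace of this branch, gave 176, 182 and 171 CPM and 129, 145 and 137 CPM in OCI-AML2. The MOLM-13 libraries gave 42.3, 40.8 and 45.4 CPM with vehicle and 43.5, 41.3 and 39.4 CPM with selinexor. SQLE fell in OCI-AML2 (-0.37 ± 0.049, adjusted p = 1.16e-08), while in MOLM-13 the groups overlapped and it did not pass the test (-0.05 ± 0.079, adjusted p = 0.596). LSS, which closes the sterol rings to lanosterol, fell in both (-0.24 ± 0.062 and -0.25 ± 0.079).

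Among the enzymes that trim lanosterol, NSDHL, a sterol dehydrogenase, gave 31.5, 28.95 and 30.1 CPM and 30.9, 30.95 and 26.9 CPM in OCI-AML2. In MOLM-13 it gave 27.6, 33.2 and 36.7 CPM and 26.9, 23.8 and 25.99 CPM. The OCI-AML2 groups overlapped (-0.03 ± 0.089, adjusted p = 0.794), and NSDHL fell in MOLM-13 (-0.36 ± 0.096, adjusted p = 0.000748), where the vehicle libraries spread widely and vehicle library 1 was close to the treated ones. HSD17B7, a ketoreductase of the same demethylation, was low in OCI-AML2 at 7.42, 9.29 and 8.07 CPM and 8.61, 7.76 and 8.31 CPM. MOLM-13 gave 21.3, 20.2 and 20.1 CPM with vehicle and 13.03, 15.1 and 14.9 CPM with selinexor. Here too the OCI-AML2 groups overlapped (-0.01 ± 0.16, adjusted p = 0.948) and MOLM-13 fell (-0.52 ± 0.12, adjusted p = 7.56e-05). EBP, a sterol isomerase, went from 21.3, 22.8 and 24.2 CPM to 17.8, 17.7 and 21.1 CPM in OCI-AML2, a narrow gap. In MOLM-13 it went from 26.9, 21.9 and 20.3 CPM to 14.6, 12.1 and 15.5 CPM. EBP fell in MOLM-13 (-0.71 ± 0.12, adjusted p = 1.40e-07) and in OCI-AML2 (-0.27 ± 0.11, adjusted p = 0.0234). The OCI-AML2 call of EBP was lost without vehicle library 3 (-0.23), selinexor library 1 (-0.23) or selinexor library 2 (-0.22), and with DESeq2 (-0.28, adjusted p = 0.091), with upper quartile scaling (-0.22, adjusted p = 0.0699) and in the fit over both lines (-0.23, adjusted p = 0.0639). TM7SF2, a sterol reductase whose reaction LBR also performs, went the other way in MOLM-13, from 12.8, 11.3 and 9.11 CPM to 16.6, 13.1 and 18.2 CPM. In OCI-AML2 it was near 3 CPM, at 2.89, 3.57 and 2.96 CPM and 3.42, 2.59 and 2.63 CPM. TM7SF2 rose in MOLM-13 (0.53 ± 0.14, adjusted p = 0.000576) and its OCI-AML2 groups overlapped (-0.14 ± 0.27, adjusted p = 0.672).

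The remaining 3 members of this stretch had weak or uncertain values. MSMO1, a sterol methyl oxidase, fell in OCI-AML2 (-0.30 ± 0.097, adjusted p = 0.00718) and did not pass the test in MOLM-13 (-0.27 ± 0.14, adjusted p = 0.0742). Without selinexor library 2 the OCI-AML2 value was -0.21 (adjusted p = 0.0868). Without vehicle library 2 or selinexor library 1 the MOLM-13 value passed, at -0.34 (adjusted p = 0.0498) and -0.36 (adjusted p = 0.0419). SC5D, a sterol desaturase, did not pass in either line (-0.19 ± 0.10 and 0.16 ± 0.11), but in MOLM-13 it passed without vehicle library 3 (0.28, adjusted p = 0.0459). CYP51A1, the lanosterol demethylase, gave 5.56, 2.49 and 10.3 CPM with vehicle and 9.20, 10.4 and 8.41 CPM with selinexor in OCI-AML2. The vehicle libraries spread from the lowest to nearly the highest of the 6 values, and the fold change of 0.62 ± 0.53 did not pass the test (adjusted p = 0.372). Without vehicle library 3 it was 1.25 (adjusted p = 5.69e-06), and with limma voom 0.86 (adjusted p = 0.018). In GENCODE 29, 79.4% of the exonic bases of CYP51A1 lie also in AC000120.2 on the same strand, so these counts are uncertain.

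The regulators split. SREBF1 and INSIG1 fell in both lines, SREBF2 rose in both, SCAP rose in MOLM-13, STARD4 fell in OCI-AML2, and INSIG2 did not pass the test. SREBF1 (chr17:17810399-17837002, minus strand), the gene of SREBP1, gave 151, 154 and 149 CPM with vehicle and 93.8, 81.96 and 89.4 CPM with selinexor in OCI-AML2. In MOLM-13 it gave 144, 144 and 144 CPM and 70.5, 70.5 and 65.7 CPM. The treated libraries lay far under the vehicle libraries in both lines. The log2 fold change was -0.78 ± 0.053 in OCI-AML2 (adjusted p = 8.57e-17) and -1.06 ± 0.054 in MOLM-13 (adjusted p = 3.88e-34). SREBF2 (chr22:41833079-41907308, plus strand), the gene of SREBP2, gave 273, 294 and 280.2 CPM and 332, 324 and 315 CPM in OCI-AML2. MOLM-13 gave 189, 182 and 186 CPM with vehicle and 223, 218 and 204 CPM with selinexor. The rise was small, without overlap in either line, at 0.20 ± 0.041 and 0.21 ± 0.042 (adjusted p = 5.30e-05 and 7.14e-06). It passed in all 12 alternative analyses of each line, with values of 0.17 to 0.25 in OCI-AML2 and 0.18 to 0.28 in MOLM-13.

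INSIG1 (chr7:155297776-155310235, plus strand), which retains the SREBPs and is itself a known SREBP target, went from 185, 201 and 184 CPM to 126, 131 and 138 CPM in OCI-AML2. In MOLM-13 it went from 64.4, 63.2 and 72.3 CPM to 35.1, 32.4 and 37.4 CPM. No treated library reached a vehicle library, and the fold changes were -0.53 ± 0.048 and -0.94 ± 0.076 (adjusted p = 6.37e-13 and 1.09e-20). Its relative INSIG2 did not pass the test in either line (0.08 ± 0.12 and 0.21 ± 0.17). SCAP, the escort of the SREBPs, gave 83.3, 91.6 and 79.5 CPM with vehicle and 90.7, 93.6 and 87.3 CPM with selinexor in OCI-AML2. In MOLM-13 the values were 86.8, 90.2 and 89.5 CPM and 104, 98.5 and 98.7 CPM. SCAP rose in MOLM-13 (0.17 ± 0.055, adjusted p = 0.00423) and did not pass in OCI-AML2 (0.09 ± 0.060, adjusted p = 0.175), where the groups overlapped. It did pass there without vehicle library 2 (0.15, adjusted p = 0.0296), with upper quartile scaling (0.15, adjusted p = 0.0317) and in the fit over both lines (0.14, adjusted p = 0.0341). STARD4, a carrier of cholesterol between membranes, was at 40.5, 38.7 and 42.8 CPM with vehicle and 31.6, 29.2 and 25.8 CPM with selinexor in OCI-AML2. MOLM-13 libraries had 16.04, 11.5 and 12.04 CPM and 12.1, 12.2 and 13.7 CPM. STARD4 fell in OCI-AML2 (-0.50 ± 0.085, adjusted p = 2.73e-06) and overlapped in MOLM-13 (-0.05 ± 0.14, adjusted p = 0.766).

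Of the 4 genes of fatty acid synthesis, ACACA and FASN differed in response between the lines, and ACLY and ACSS2 did not pass that test (difference 0.0025 ± 0.059, adjusted p = 0.983, and 0.30 ± 0.18, adjusted p = 0.206). ACLY, ACACA and FASN fell in OCI-AML2, whereas in MOLM-13 ACLY fell, FASN and ACSS2 rose, and ACACA did not pass the test. ACLY, which supplies acetyl-CoA from citrate, gave 403, 445 and 418 CPM with vehicle and 279.6, 273 and 263 CPM with selinexor in OCI-AML2. MOLM-13 gave 299.8, 326 and 331 CPM and 211, 217 and 211 CPM. ACLY fell without overlap in both lines (-0.63 ± 0.042 and -0.58 ± 0.039). ACACA, the acetyl-CoA carboxylase that makes malonyl-CoA, went from 116, 114 and 121 CPM to 75.1, 71.7 and 68.3 CPM in OCI-AML2. In MOLM-13 the vehicle libraries had 74.3, 67.95 and 67.3 CPM and the selinexor libraries 68.5, 62.8 and 63.6 CPM. ACACA fell in OCI-AML2 (-0.71 ± 0.057, adjusted p = 1.32e-14) and the MOLM-13 groups overlapped (-0.10 ± 0.065, adjusted p = 0.159).

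FASN (chr17:82078333-82098332, minus strand), the fatty acid synthase, gave 587, 632 and 635 CPM with vehicle and 447, 415 and 388 CPM with selinexor in OCI-AML2. In MOLM-13 it gave 316, 328 and 346 CPM and 369, 379 and 343 CPM. The OCI-AML2 groups were apart, while in MOLM-13 selinexor library 3 lay under vehicle library 3. The test called a fall in OCI-AML2 (-0.57 ± 0.045, adjusted p = 3.25e-13) and a small rise in MOLM-13 (0.14 ± 0.038, adjusted p = 0.000775), where the 12 alternatives gave 0.11 to 0.21 and passed. ACSS2, which makes acetyl-CoA from acetate, was at 11.95, 13.4 and 12.3 CPM and 12.2, 12.1 and 13.5 CPM in OCI-AML2, groups that overlap (0.0020 ± 0.13, adjusted p = 0.99). In MOLM-13 it rose without overlap from 13.98, 14.2 and 13.3 CPM to 16.6, 18.8 and 17.5 CPM (0.35 ± 0.12, adjusted p = 0.00952). That call was lost with DESeq2 (0.34, adjusted p = 0.0752) and without selinexor library 2 (0.30, adjusted p = 0.0579).

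The desaturases FADS1, SCD and FADS2 had the largest falls of the 32 genes in OCI-AML2. All 4 genes of desaturation and elongation fell there, and all 3 that were tested fell in MOLM-13. Summed, they held 1383 to 1393 CPM with vehicle and 577 to 616 CPM with selinexor in OCI-AML2, against 505 to 508 CPM and 172 to 180.1 CPM in MOLM-13. SCD (chr10:100347124-100364834, plus strand), the stearoyl-CoA desaturase that makes monounsaturated fatty acids, gave 625, 634 and 618 CPM with vehicle and 259.5, 275 and 264 CPM with selinexor in OCI-AML2. In MOLM-13 it gave 483, 482 and 487 CPM and 162, 160.0 and 165 CPM. The libraries of a group lay close together and the groups far apart. SCD was 2.35-fold lower in OCI-AML2 (-1.23 ± 0.040, adjusted p = 3.35e-28) and 2.98-fold lower in MOLM-13 (-1.58 ± 0.038, adjusted p = 3.03e-61). FADS1 (chr11:61799625-61829318, minus strand), a desaturase of polyunsaturated fatty acids, went from 333, 325 and 318 CPM to 117, 132 and 120.1 CPM in OCI-AML2. In MOLM-13, from a far lower start, it went from 17.4, 18.7 and 16.9 CPM to 9.11, 9.49 and 11.1 CPM. Its groups stood apart in both lines (-1.40 ± 0.046 and -0.84 ± 0.14, adjusted p = 5.43e-28 and 5.52e-08).

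FADS2 (chr11:61792980-61867354, plus strand), the desaturase before FADS1 in the same pathway, gave 372, 357 and 382 CPM with vehicle and 156, 164 and 157 CPM with selinexor in OCI-AML2. The MOLM-13 libraries gave 4.74, 4.92 and 3.46 CPM and 1.27, 1.67 and 2.999 CPM, which rest on 33 to 45 counts with vehicle and 11 to 24 with selinexor. FADS2 fell in both lines without overlap (-1.22 ± 0.042 and -1.15 ± 0.30), and selinexor library 3 of MOLM-13 came close to vehicle library 3. The RefSeq starts kept for FADS1 and FADS2 lie 800 bases apart, and each lies inside the span that GENCODE 29 gives its gene. Other starts of these genes were not compared. The genes share 490 exonic bases on opposite strands in GENCODE 29. ELOVL6, an elongase of saturated fatty acids, went from 62.5, 67.5 and 71.00 CPM to 43.8, 45.6 and 46.5 CPM in OCI-AML2, with no overlap (-0.57 ± 0.069, adjusted p = 1.53e-09). In MOLM-13 it had 1 to 4 counts a library with vehicle and 2 to 7 with selinexor, at or near the limit that 3 counts set, and it was not tested.

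**Figure D2:**
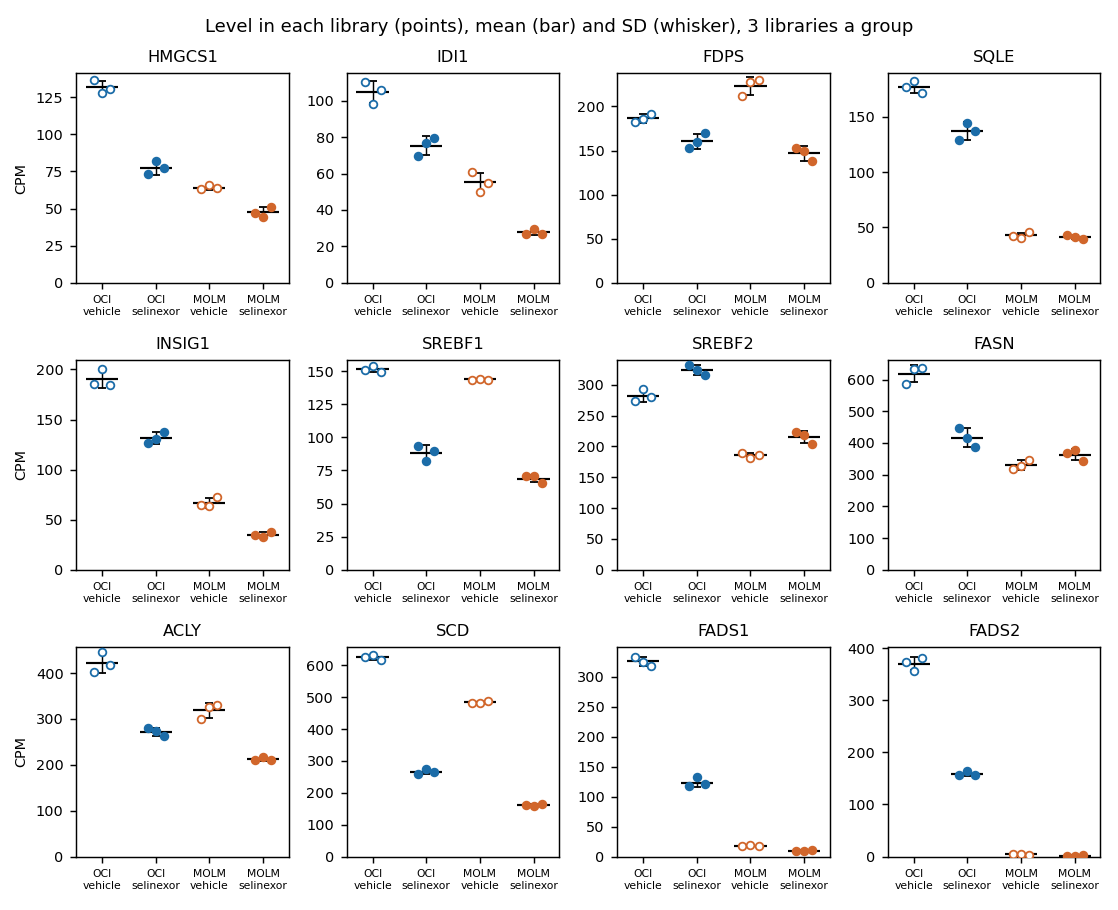
CPM (vertical axes from 0, scaled within a line) of 12 members in each of the 12 libraries, with open circles for vehicle, filled circles for selinexor, blue for OCI-AML2 and orange for MOLM-13, and a bar and whisker for the mean and SD of 3 libraries. SCD and SREBF1 drop in both lines, SREBF2 rises in both, FASN drops in OCI-AML2 and overlaps in MOLM-13, and FADS1 and FADS2 start low in MOLM-13.

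The size of the response was then compared between the lines, as the log2 fold change in MOLM-13 minus that in OCI-AML2 over the 12 libraries. It differed for 16 of 32 members, 10 with a lower and 6 with a higher value in MOLM-13, where 30.1% of 12530 genes differed, 19.0% lower and 11.1% higher. Of the mevalonate enzymes, ACAT2 (-0.38 ± 0.075), PMVK (-0.38 ± 0.094), IDI1 (-0.56 ± 0.10) and FDPS (-0.44 ± 0.066) had lower values in MOLM-13, and HMGCS1 (0.28 ± 0.088) fell less. Later in sterol synthesis the values were lower for NSDHL (-0.38 ± 0.13), HSD17B7 (-0.55 ± 0.20) and EBP (-0.49 ± 0.16) and higher for SQLE (0.27 ± 0.087). SREBF1 (-0.33 ± 0.076) and INSIG1 (-0.46 ± 0.087) fell more in MOLM-13, and STARD4 had the higher value (0.40 ± 0.16). FASN had the highest of the 16 values (0.66 ± 0.062, adjusted p = 2.23e-12), followed by ACACA (0.56 ± 0.086, adjusted p = 1.15e-07) and FADS1 (0.51 ± 0.12, adjusted p = 0.000485), while SCD fell more in MOLM-13 (-0.39 ± 0.055, adjusted p = 1.26e-08). ACLY (0.0025 ± 0.059), DHCR7 (-0.01 ± 0.090) and SREBF2 (-0.03 ± 0.059) were among the 16 that did not pass. Of these MVK (0.31 ± 0.13, adjusted p = 0.0545) passed in 8 of 17 alternative analyses, SC5D (0.30 ± 0.15) in 3 and FDFT1 (0.07 ± 0.062) in 2. ELOVL6 (1.17 ± 0.59, adjusted p = 0.13) and TM7SF2 (0.62 ± 0.29, adjusted p = 0.0988) had wide errors and did not pass in any. The proliferation markers differed in the same comparison, 19 of 19 of them lower in MOLM-13 with a median of -0.68. Their part in the differences was not tested.

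Over 17 alternative analyses of this difference, the calls of ACAT2, PMVK, IDI1, FDPS, SREBF1, INSIG1, SCD, ACACA, FASN and FADS1 held in all. Those of NSDHL, HSD17B7, EBP, STARD4, HMGCS1 and SQLE were lost in 10, 8, 7, 10, 2 and 2 of them, with unchanged sign. DESeq2 lost the calls of NSDHL, HSD17B7, EBP and STARD4. NSDHL ranged from -0.48 to -0.25 (adjusted p up to 0.163) and was lost without OCI-AML2 vehicle library 1, 2 or 3 or selinexor library 1 or 2, and without MOLM-13 vehicle library 2 or 3 or selinexor library 2. HSD17B7 (-0.59 to -0.39, adjusted p up to 0.152) was lost without OCI-AML2 vehicle library 1 or 3 or selinexor library 1 or 3, and without MOLM-13 vehicle library 2 or selinexor library 1. EBP (-0.57 to -0.35, adjusted p up to 0.112) was lost without OCI-AML2 vehicle library 1 or 2 or selinexor library 3, and without MOLM-13 vehicle library 1 or 2 or selinexor library 2. STARD4 (0.32 to 0.55, adjusted p up to 0.146) was lost without OCI-AML2 selinexor library 2 or 3, MOLM-13 vehicle library 2 or 3, or any MOLM-13 selinexor library. HMGCS1 (0.22 to 0.39, adjusted p up to 0.0617) was lost without OCI-AML2 selinexor library 1 or MOLM-13 selinexor library 3, and SQLE (0.23 to 0.38, adjusted p up to 0.0564) without selinexor library 1 of either line. The comparison over all genes leaned on scaling: 63.2% of the called genes were lower in MOLM-13, but 50.8% with upper quartile scaling. Without OCI-AML2 vehicle library 1, 2 or 3 or MOLM-13 vehicle library 2 that share was 43.3%, 43.5%, 44.2% or 43.2%, and the genes called lower numbered 1542, 1604, 1646 or 1450 in place of 2380.

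**Figure D3:**
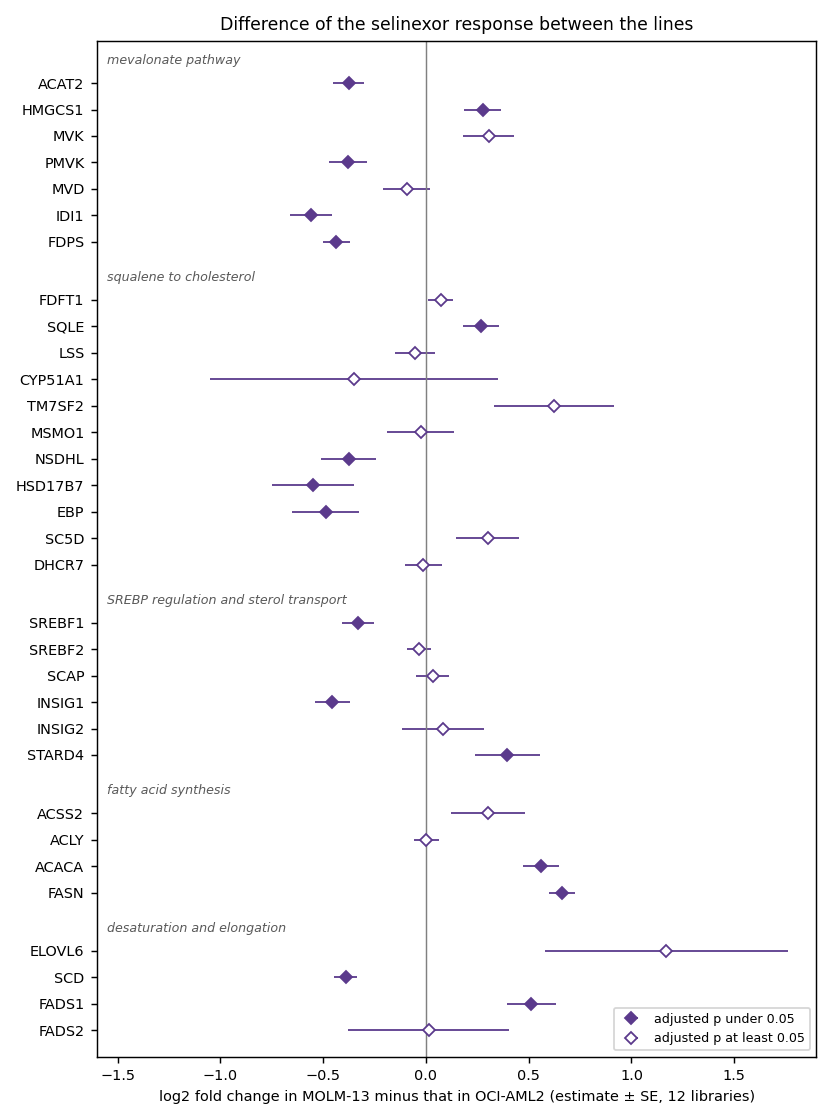
Difference of the selinexor response between the lines (horizontal axis, log2 fold change in MOLM-13 minus that in OCI-AML2, estimate ± SE over 12 libraries) for the 32 members, filled where adjusted p was under 0.05. Filled symbols lie on both sides of 0, from IDI1 at -0.56 to FASN at 0.66.

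With vehicle alone the lines differed in the level of most members, here in CPM scaled over the 12 libraries. In OCI-AML2 19 of 32 members were higher and 5 lower than in MOLM-13, where 36.2% of 12530 genes were higher, 35.0% lower and 71.2% either, and the members' median log2 difference was 0.53 against 0.00. The widest gaps were in desaturation and elongation. ELOVL6 averaged 65.8 ± 4.16 CPM in OCI-AML2 and 0.328 ± 0.179 CPM in MOLM-13 (SD, n = 3), FADS2 364 ± 12.3 and 4.40 ± 0.805 CPM, and FADS1 319.6 ± 7.69 and 17.8 ± 0.967 CPM. The log2 differences were 7.56 ± 0.19, 6.37 ± 0.082 and 4.17 ± 0.064, and no libraries overlapped. The MOLM-13 value of ELOVL6 rests on 1 to 4 counts a library. The difference of SCD was smaller, at 615 ± 8.48 and 487 ± 2.81 CPM (0.33 ± 0.037). Among sterol genes, SQLE averaged 173 ± 5.32 CPM in OCI-AML2 and 43.2 ± 2.38 CPM in MOLM-13 (2.01 ± 0.059), and STARD4 (1.59 ± 0.10), INSIG1 (1.48 ± 0.056), HMGCS1 (1.00 ± 0.059), DHCR7 (0.99 ± 0.060) and MSMO1 (0.98 ± 0.11) were also higher in OCI-AML2. The 5 lower there were TM7SF2 (-1.83 ± 0.19), HSD17B7 (-1.34 ± 0.13), PMVK (-0.87 ± 0.064), FDPS (-0.30 ± 0.045) and ACAT2 (-0.25 ± 0.050). SREBF1 did not pass the test (0.04 ± 0.050, adjusted p = 0.494), at 149 ± 2.42 and 145 ± 0.346 CPM. Line cannot be told apart here from separate culture or library preparation.

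**Figure D4:**
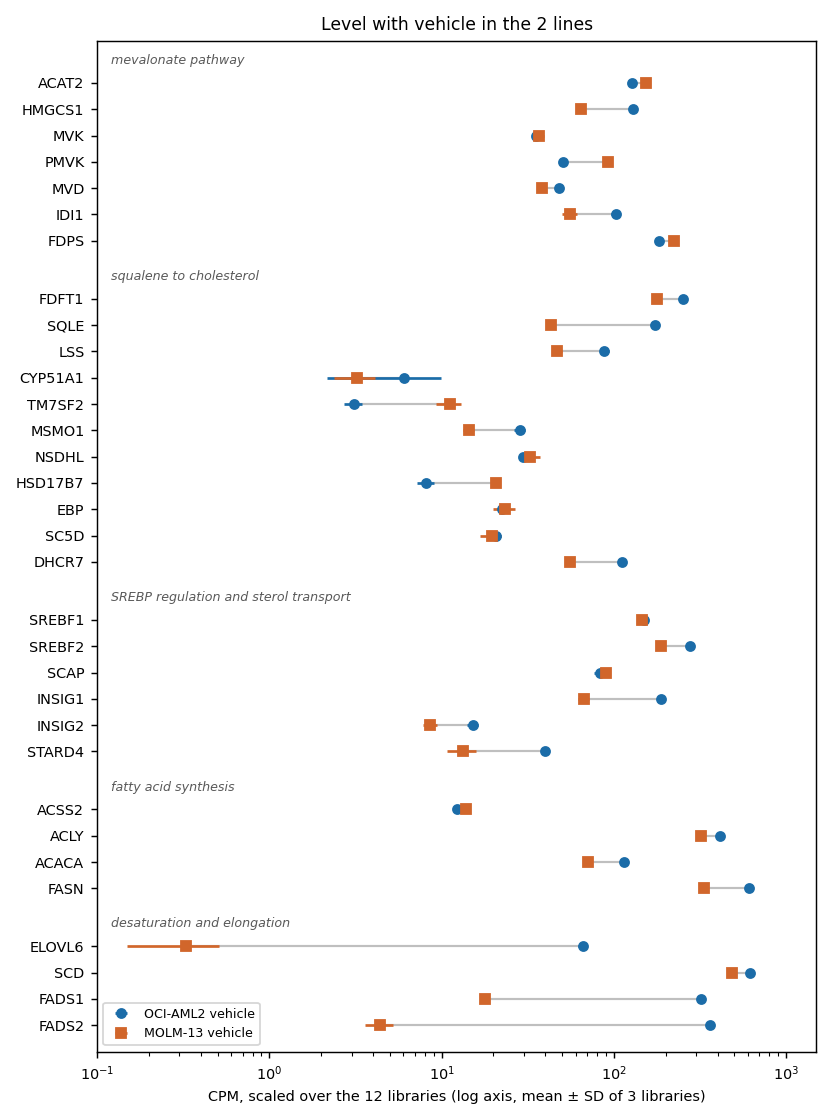
Level of the 32 members with vehicle in OCI-AML2 (circles) and MOLM-13 (squares), as mean ± SD of 3 libraries in CPM scaled over the 12 libraries on a log axis, with a grey line joining the lines of cells. Most circles lie right of the squares, and ELOVL6, FADS1 and FADS2 have the longest joining lines.

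Members were also ranked by CPM per kilobase of exon, with the exons of all transcripts of a gene in GENCODE 29 merged. The order depends on that length, which can exceed the length of the transcript that is expressed. On this scale SCD had the highest level with vehicle in both lines. It was at 117 ± 1.54 CPM per kb in OCI-AML2 and 90.2 ± 0.505 CPM per kb in MOLM-13 (SD, n = 3). The next levels in OCI-AML2 were those of ACLY (80.9 ± 4.14), FASN (66.0 ± 2.89) and INSIG1 (52.1 ± 2.53), the last of which did not differ beyond its spread from FDPS (50.1 ± 1.35) or FDFT1 (49.1 ± 1.44). In MOLM-13 they were PMVK (72.2 ± 2.93), ACLY (61.1 ± 3.19) and FDPS (59.96 ± 2.69). ACLY and FDPS there did not differ beyond their spread. With selinexor SCD went to 49.6 ± 1.44 CPM per kb in OCI-AML2, level with ACLY within their spread (52.1 ± 1.6), and to 30.3 ± 0.506 in MOLM-13, the fifth of the members.

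Further genes of the same pathways were read from lists that hold none of the 32 members. Of all genes tested, 31.8% fell and 31.3% rose in OCI-AML2, and 31.8% fell and 31.8% rose in MOLM-13. The counts of all these lists are to be read beside those shares, and a count near them is not particular to its list. Genes named for a count of 5 or fewer were chosen after their values were seen. Of 6 other sterol enzymes tested, 3 rose in OCI-AML2 (ACAT1, FAXDC2 and HSD17B12) and 2 in MOLM-13 (ACAT1 and HSD17B12). Among those that fell were LBR in both lines and ERG28 in OCI-AML2. LBR, the lamin B receptor and sterol reductase, had log2 fold changes of -1.07 ± 0.041 in OCI-AML2 and -1.23 ± 0.045 in MOLM-13. Of 12 genes of the isoprenoid branches, 7 fell and 2 rose (GGPS1 and FNTA) in OCI-AML2, and 6 fell and 1 rose (FNTA) in MOLM-13. The steepest fall that passed in both lines was that of ICMT, the methyltransferase of prenylated proteins, at -0.58 ± 0.065 and -0.62 ± 0.053.

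Of 11 genes of SREBP processing and sterol sensing tested, 4 rose in OCI-AML2 (RNF139, ERLIN2, MBTPS1 and ERLIN1) and 3 in MOLM-13 (RNF139, MBTPS1 and ERLIN1). Among those that fell were TMEM97, C12orf49 and SEC24D in both lines and RNF145 in OCI-AML2. TMEM97, a sterol-responsive membrane protein, was lower (-0.68 ± 0.067 and -0.77 ± 0.067), and RNF139, a ubiquitin ligase of the sterol response, higher (0.41 ± 0.064 and 0.55 ± 0.073). Of 13 genes of cholesterol uptake, storage and transport, 4 fell (SOAT1, SCARB1, OSBP and LRP8) and 5 rose (NPC2, LIPA, STARD3, GRAMD1A and GRAMD1B) in OCI-AML2. In MOLM-13 3 fell (SOAT1, STARD3 and LRP8) and 5 rose (LIPA, STARD5, VLDLR, GRAMD1A and GRAMD1B). LIPA, the lysosomal acid lipase, rose by 0.26 ± 0.059 and 0.58 ± 0.050. Of 6 LXR genes, NR1H2, which encodes LXR beta, was the 1 that rose in OCI-AML2 (0.57 ± 0.068), and it rose in MOLM-13 (0.41 ± 0.071) with MYLIP and ABCA1, while LPCAT3 fell.

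Of 19 further genes of fatty acid synthesis, elongation and activation, 10 fell and 6 rose in OCI-AML2, and 8 fell and 4 rose (ACSL1, FADS3, ACACB and MLYCD) in MOLM-13. ACSL3, an acyl-CoA synthetase, fell in both lines (-0.98 ± 0.064 and -0.55 ± 0.068). TECR, the reductase that ends each elongation cycle, rose in OCI-AML2 (0.21 ± 0.048) and fell in MOLM-13 (-0.50 ± 0.045), a difference of -0.76 ± 0.068 (adjusted p = 2.45e-16). ACSL1, another synthetase, did the reverse (-0.20 ± 0.069 and 0.79 ± 0.053, difference 0.93 ± 0.088, adjusted p = 3.31e-15). Of 12 genes of fatty acid oxidation, 2 fell in OCI-AML2 (DECR1 and ACADM) and 5 in MOLM-13 (DECR1, ECI1, ACAA2, ACADM and ETFDH). Among those that rose were CPT1A, ACADVL and HADHB in both lines, CPT2 in OCI-AML2 and HADHA in MOLM-13. ACADVL, which opens the oxidation of long chains, rose by 0.47 ± 0.040 and 0.51 ± 0.040, and DECR1, a reductase for unsaturated chains, fell in both (-0.19 ± 0.073 and -0.79 ± 0.064).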

How the data were processed

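Per the file headers and values, the count tables deposited by the authors hold 1 whole number per gene symbol and library. The submitters' processing notes list STAR, hg38, R 3.6.1 and DESeq2; which program counted the reads, and on which annotation, is not given in the sources used here. Per the labels, the libraries were poly(A)-selected without strand information. The initial in a table's name gave the line, and the column letter the treatment. The authors' deposited table of log2 fold changes for MOLM-13 (vehicle over selinexor, turned here) had the same sign as the values computed here for 31 of 31 members, with a largest difference of 0.0155.

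From the counts, edgeR 4.0.16 (R 4.3.3) was run with TMM factors, genes kept by filterByExpr at a minimum count of 10 and a minimum total of 15, and robust quasi-likelihood F tests. A gene was called where the Benjamini-Hochberg adjusted p over all genes tested was under 0.05. The filter took out 0.0996% (OCI-AML2) and 0.109% (MOLM-13) of all counts. A fit of 6 libraries served each line, and a fit of the 15615 shared genes over 12 libraries served the line by treatment term and the contrast of the vehicle groups. On simulated counts, 96.2% of genes changed 1.5-fold were recovered for OCI-AML2 (12038 genes), 97.2% for MOLM-13 (11785 genes) and 82.0% for the difference between the lines (12464 genes). The simulation changed a small part of the genes, all above a minimum mean count, and gave every gene the same dispersion. These shares therefore do not cover members with low or widely spread counts. Examples are TM7SF2 and CYP51A1 in OCI-AML2 and FADS2 in MOLM-13. As alternatives, scaling was changed (DESeq2's size factors or upper quartiles), the filter was dropped, DESeq2 1.42.0 or voom of limma 3.58.1 replaced edgeR, both lines were fitted jointly, and each library was left out. Positions and exon lengths come from GENCODE 29 (GRCh38).

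All 32 members are named, with values per library for the 3 of each role with the smallest p, for those moving against most others and for those whose response differed between lines, and up to 3 genes by smallest p of each further list. The members and lists were chosen with earlier results of these data known. The results of some genes of the further lists are not reported here.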

Additional observations from a re-analysis of the deposited data

Results flagged for a closer look

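For 16 members the response to selinexor differed between the lines by edgeR's quasi-likelihood test of the interaction (adjusted p under 0.05, log2 fold change in MOLM-13 minus that in OCI-AML2, 3 libraries a group). Lower values in MOLM-13 were found for IDI1 (-0.56), HSD17B7 (-0.55), EBP (-0.49), INSIG1 (-0.46), FDPS (-0.44), SCD (-0.39), PMVK (-0.38), ACAT2 (-0.38), NSDHL (-0.38) and SREBF1 (-0.33). Higher values were found for FASN (0.66), ACACA (0.56), FADS1 (0.51), STARD4 (0.40), HMGCS1 (0.28) and SQLE (0.27). The dose differed with the line, and the 2 cannot be told apart.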

How the results depend on the processing

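No paired analysis was possible because the columns carry no replicate numbers. No called value changed its direction in these alternatives. Of the values of single members under alternative analyses, 372 kept their call in OCI-AML2 with 7 calls lost and 5 gained, 367 with 2 lost and 3 gained in MOLM-13, 541 with 0 lost and 3 gained between the vehicle groups, and 492 with 39 lost and 13 gained for the difference between the lines. The number of members that rose in OCI-AML2 was 1, and 2 with upper quartile scaling, limma voom or the joint fit of 12 libraries, and 1 to 2 when a library was left out. The members' median in OCI-AML2 was -0.36, but -0.30 with upper quartile scaling and -0.32 in the joint fit, and in MOLM-13 -0.35, but -0.28 with upper quartile scaling. Leaving out 1 library moved the genes whose response was lower in MOLM-13 between 1450 and 2236 (2380 with all libraries), those higher between 1228 and 2084 (1388 with all), and the members' median vehicle difference between 0.47 and 0.59. The cause of these shifts was not tested. Depth limits ELOVL6 and FADS2 in MOLM-13 most, the members with the lowest group means (0.326 CPM with vehicle and 1.98 CPM with selinexor).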
